A study of Mus musculus with 20 samples.

Results

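The spindle assembly checkpoint genes Mad2l1, Mad1l1, Mad2l2, Bub1, Bub1b, Bub3 and Ttk were followed in the uterus of ovariectomized mice given estradiol (E2), bisphenol A (BPA) or HPTE, the estrogenic metabolite of the pesticide methoxychlor. These 7 genes, of 27962 gene names on the array, were chosen by name with earlier results of these arrays known. The early rise of Mad2l1 was part of that choice, so the values at 2 h against vehicle are given as a description with no test. The scanner data held 11 probes for the 7 genes, 2 for Mad2l1, 4 for Bub3 and 1 for each of the others. The probe with the brightest mean over the 20 arrays stood for its gene, and 10 of the 11 probes passed the filter on dim signal.

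All groups were C57bl6/J females, 10 weeks of age or older, whose ovaries had been removed and that rested for 10 to 14 days before 1 subcutaneous injection of 100 µl sesame oil. The oil carried nothing (vehicle, 3 arrays, labelled 24 h), 250 ng E2 (3 arrays at 2 h and 2 at 24 h), 750 µg BPA (3 arrays at each time) or 750 µg HPTE (3 arrays at each time). The vehicle arrays serve as the control for both times, and no vehicle array at 2 h was analysed here. Each array held the Cy3-labelled RNA of 1 uterus. The whole organ was used, so fewer cells of a type and less RNA per cell cannot be told apart.

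The checkpoint holds a dividing cell before anaphase until every chromosome is attached to the spindle. Ttk (Mps1) is the kinase that starts the signal at unattached kinetochores, and Bub1 and Bub3 bind there as scaffold. Mad1l1 carries Mad2l1 to the kinetochore, where Mad2l1 is turned into the form that, with Bub1b (BubR1) and Bub3, binds Cdc20 and restrains the anaphase-promoting complex. Mad2l2 (Rev7) is a relative of Mad2l1 that works in translesion DNA synthesis and can also bind activators of the anaphase-promoting complex. In the uterus of ovariectomized mice, estrogen is known to bring resting epithelial cells into DNA synthesis and mitosis around a day after injection.

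The early signal of Mad2l1 rested on 2 probes of 60 bases, shown because they gave the same profile from different stretches of the transcript. Both mapped to the plus strand of chromosome 6 in the build named in the files (mm7), at chr6:66520777-66520836 and chr6:66521660-66521719; exon and UTR annotation of that build was not used here.
Mad2l1 brighter probe: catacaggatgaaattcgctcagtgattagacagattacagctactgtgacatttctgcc
Mad2l1 dimmer probe: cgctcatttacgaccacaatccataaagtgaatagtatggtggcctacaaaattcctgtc
Over the 20 arrays the values of the 2 probes had a Pearson correlation of 0.999, a description with no test.

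The 250 bases before the start of Mad2l1 are shown beside those of Bub1 and Ttk, whose transcripts followed another course in time. RefSeq windows of GRCm38.p6 were matched for 7 of the 7 genes (10 windows), and letters were searched on both strands in 32851 windows of the same length. The windows lay at chr6:66534971-66535220 on the plus strand for Mad2l1, at chr2:127831860-127832109 on the minus strand for Bub1 and at chr9:83834439-83834688 on the plus strand for Ttk. Capitals mark GGTCA, the half-site of the estrogen response element, in Mad2l1, and CCAAT, the CCAAT box, on either strand in Bub1 and Ttk.
Mad2l1: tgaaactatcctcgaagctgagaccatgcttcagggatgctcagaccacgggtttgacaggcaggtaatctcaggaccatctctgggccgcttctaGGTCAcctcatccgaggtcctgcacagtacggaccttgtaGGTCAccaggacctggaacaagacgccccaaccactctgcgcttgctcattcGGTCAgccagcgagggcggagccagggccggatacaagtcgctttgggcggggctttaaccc
Bub1: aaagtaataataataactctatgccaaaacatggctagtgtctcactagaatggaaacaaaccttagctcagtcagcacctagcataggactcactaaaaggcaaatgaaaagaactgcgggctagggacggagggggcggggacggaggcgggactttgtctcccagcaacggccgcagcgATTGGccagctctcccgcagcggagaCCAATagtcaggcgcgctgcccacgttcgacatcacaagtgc
Ttk: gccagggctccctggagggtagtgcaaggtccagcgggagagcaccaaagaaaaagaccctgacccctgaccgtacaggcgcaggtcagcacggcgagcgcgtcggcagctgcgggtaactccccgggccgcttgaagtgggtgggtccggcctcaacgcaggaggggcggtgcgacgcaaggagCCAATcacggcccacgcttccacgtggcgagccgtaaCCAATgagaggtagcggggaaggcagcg
The Mad2l1 window held GGTCA 3 times, and 1.5% of all windows held it as often. The Ttk window held it 3 times as well and the Bub1 window 0 times, so these letters did not part the early gene from the late ones. CCAAT was found 2 times in the Bub1, Ttk and Bub3 windows, as in 10.1% of all windows, and 0 times in that of Mad2l1. It was found 1 time in the Bub1b window, 0 or 1 time in those of Mad2l2 and 0 times in those of Mad1l1. Of all windows, 33.8% held any CCAAT, and these letters did not part Mad2l1 from Mad1l1. The full palindromic estrogen response element was in none of the 10 windows and in 0.1% of all windows, and these matches are letters, not sites of binding.

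Intensities below were scaled so that the 75th percentile of every array equals 1679 units, the median of that percentile over the arrays. They are arbitrary units of 1 probe and are not compared between genes. The 75th percentile ran from 1320 to 2046 before scaling, and 72.7% to 81.4% of the probes were well above background. The uterine markers Esr1, Pgr, Hoxa10 and Hoxa11 were well above background on every array. Libraries stood apart in 4 ways. The summed intensity of 10 transcripts of spermatogenic cells was 58087 to 196290 on the vehicle arrays, with 9 or 10 of them well above background, and 561 to 23883 on the treated ones, with 5 to 10 above it. The summed intensity of 7 pancreatic transcripts was 532 to 3375530 on the E2 2 h arrays and 9357 to 24814 on the E2 24 h arrays, against 466 to 777 elsewhere, with 3 to 7 of the 7 well above background over all arrays. BPA 2 h replicate 3 lay apart from the other two arrays of its group for Mad2l1 and Mad2l2, and results that rest on it are given with and without it. BPA 2 h replicate 1 had the leukocyte gene Ptprc at an intensity of 15493, against 5554 and 3564 on the other arrays of its group, and a sum of 4 epithelial markers of 67127. Without it the log2 difference of BPA from E2 at 2 h was -0.08 for Mad2l1 (adjusted p = 0.879), 0.50 for Mad2l2 (adjusted p = 0.250) and 0.28 for Bub3 (adjusted p = 0.0242).

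**Figure D1:**
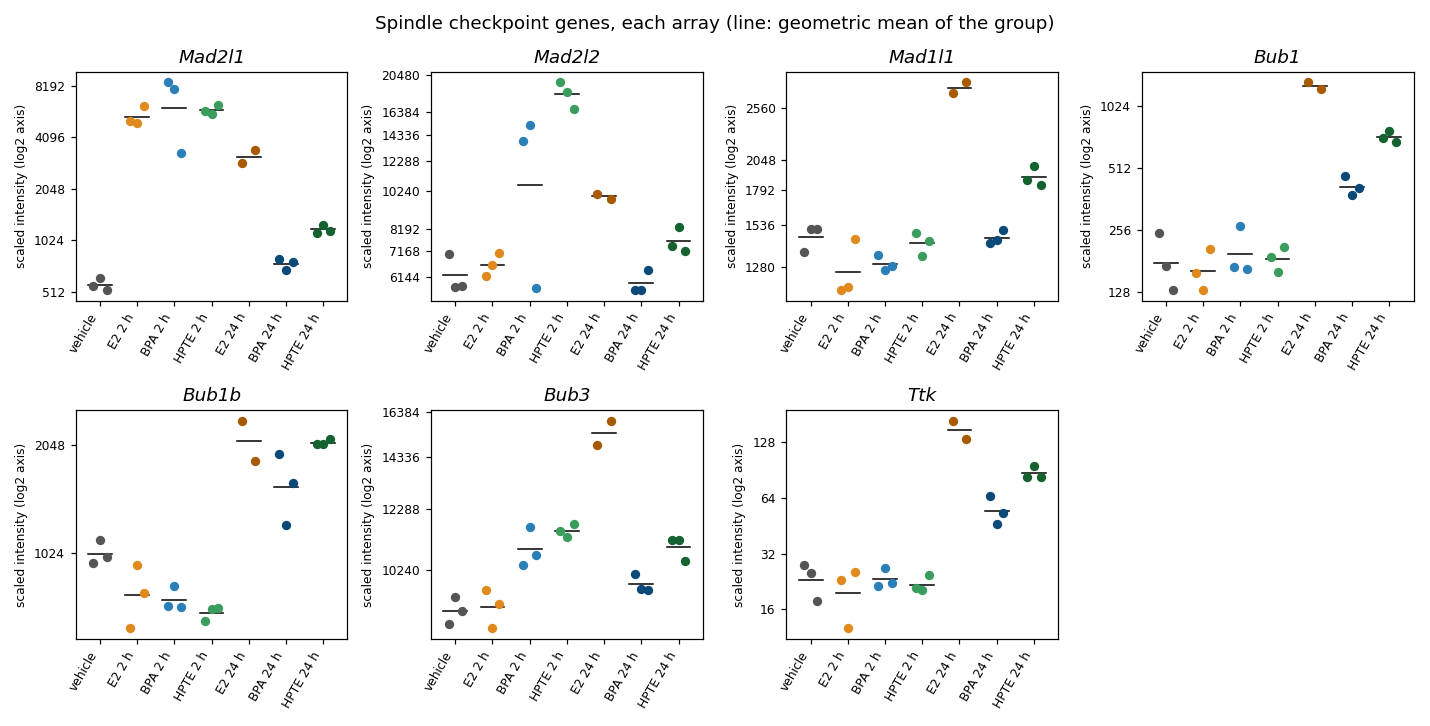
Scaled intensity of each of the 7 genes (brightest probe, log2 axis) on the 20 arrays, 1 panel a gene; each point is 1 array and each line the geometric mean of its group. Mad2l1 lies between 3323 and 8605 on all 9 arrays at 2 h against 523 to 614 on vehicle arrays, whereas Bub1, Bub1b and Ttk lie above every vehicle array on all arrays at 24 h, and at 2 h on 1 array (Bub1 after BPA).

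Mad2l1 was high in all 3 treated groups at 2 h. Its intensity was 557, 614 and 523 on the vehicle arrays. At 2 h it was 5113, 4997 and 6226 after E2, 8605, 7876 and 3323 after BPA, and 5863, 5580 and 6351 after HPTE. The treated arrays lay above every vehicle array, and the mean was 9.62-fold, 10.8-fold and 10.5-fold that of vehicle after E2, BPA and HPTE. BPA replicate 3 was the lowest of the 9 arrays at 2 h; without it the log2 difference from vehicle after BPA was 3.87 in place of 3.43.

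The compounds were then compared with each other at 2 h, a contrast outside the one that drew attention to Mad2l1. The Mad2l1 log2 difference was 0.17 between BPA and E2 (95% interval -0.36 to 0.70, limma adjusted p = 0.691) and 0.13 between HPTE and E2 (-0.40 to 0.66, adjusted p = 0.794). Between HPTE and BPA, given at the same mass, it was -0.04 (-0.57 to 0.49, adjusted p = 0.967). The arrays of the 3 groups overlapped. Without BPA replicate 3, BPA stood above E2 by 0.60 (adjusted p = 0.002) and HPTE below BPA (-0.47, adjusted p = 0.041). BPA had the highest log2 mean with and without that array, so the calls and not the order rested on it. Without BPA replicate 1 the difference of BPA from E2 was -0.08 (adjusted p = 0.879).

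By 24 h Mad2l1 had separated by compound. Its intensity was 2893 and 3440 after E2, 801, 682 and 769 after BPA, and 1136, 1265 and 1158 after HPTE, and no group overlapped another or vehicle. The level was 5.60-fold that of vehicle after E2 (log2 2.48 ± 0.28 SE, limma adjusted p = 1.74e-06) and 2.10-fold after HPTE (1.07 ± 0.25, adjusted p = 0.00412). After BPA it was 1.33-fold (0.41, 95% interval -0.12 to 0.94, adjusted p = 0.303), which did not pass. Without BPA 2 h replicate 3, the same BPA difference had an adjusted p of 0.0182. These contrasts share their vehicle arrays with those at 2 h.

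The level of Mad2l1 thus ran, from low to high, vehicle, BPA 24 h, HPTE 24 h, E2 24 h, and then the groups at 2 h. Of these neighbours, vehicle and BPA 24 h did not pass (adjusted p = 0.303), nor did BPA 24 h and HPTE 24 h (log2 difference 0.66, adjusted p = 0.141), whereas HPTE 24 h and E2 24 h differed (-1.41, adjusted p = 0.000614). Without BPA 2 h replicate 3, an array of neither group, BPA 24 h and HPTE 24 h did differ (0.66, adjusted p = 0.00935). The E2 24 h arrays lay below the E2 2 h arrays, with a mean at 2 h 1.72-fold that at 24 h. The mean at 2 h was 8.12-fold that at 24 h for BPA and 4.998-fold for HPTE. These falls between times are descriptions, since the values at 2 h were in view when the gene was chosen. The dimmer Mad2l1 probe gave the same calls in the contrasts tested.

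Mad2l2, the relative of Mad2l1, separated the compounds at 2 h in another way. Its intensity was 7043, 5804 and 5838 on the vehicle arrays and 6170, 6592 and 7072 after E2 at 2 h. After HPTE it was 19619, 18522 and 16772, and after BPA 13787, 15180 and 5747. The E2 arrays overlapped vehicle, all 3 HPTE arrays lay above every other array, and BPA replicate 3 lay at the level of vehicle.

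HPTE stood above E2 at 2 h by 1.47 ± 0.25 (SE) on the log2 scale for Mad2l2, or 2.77-fold (limma adjusted p = 0.00125), at doses that differed. BPA stood above E2 by 0.69 (95% interval 0.16 to 1.22, adjusted p = 0.0654), and by 1.13 (adjusted p = 8.04e-06) without BPA replicate 3. HPTE and BPA differed by 0.78 (0.25 to 1.31, adjusted p = 0.144). Within the slides that held both groups, HPTE less E2 was 1.49 and 1.47, and BPA less E2 was -0.20 on the slide of BPA replicate 3 and 1.10 on the other. E2 2 h replicate 1, whose pancreatic sum was 532, had a Mad2l2 intensity of 6170, the lowest of its group. This is 1 array, and the part of the pancreatic transcripts in the Mad2l2 differences was not tested.

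At 24 h the order of Mad2l2 had turned. Its intensity was 10057 and 9802 after E2, 5681, 5689 and 6406 after BPA, and 7398, 8284 and 7177 after HPTE. E2 was now the highest group and BPA overlapped vehicle. Against vehicle, E2 differed by 0.68 (1.60-fold, adjusted p = 0.0436), a call that was lost in 22 of 31 alternative settings, with adjusted p up to 0.157. BPA (-0.07, adjusted p = 0.894) and HPTE (0.29, adjusted p = 0.393) did not pass. Without BPA 2 h replicate 3, the same HPTE difference had an adjusted p of 0.0273.

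Of the 7 genes, 1 lay above every vehicle array at 2 h after E2, 2 after BPA and 3 after HPTE. Over all probes tested, 16.1%, 21.7% and 23.7% did so, and since the choice of genes used this contrast nothing is read from these counts. Below every vehicle array lay 1, 2 and 1 of the genes, against 25.1%, 33.1% and 34.5% of all probes. The genes above were Mad2l1 in each group, Bub3 after BPA and HPTE, and Mad2l2 after HPTE. The genes below were Bub1b in each group and Mad1l1 after BPA.

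Bub1b, the pseudokinase that joins Mad2l1 in the inhibitor of Cdc20, went below vehicle at 2 h and above it at 24 h. Its intensity was 956, 1107 and 994 on the vehicle arrays and 629 to 948 after E2, 722 to 824 after BPA and 661 to 719 after HPTE at 2 h. The log2 differences were -0.39, -0.43 and -0.55. Within slides that held both groups, the difference from vehicle was -0.01 after E2, -0.41 and -0.61 after BPA, and -0.42 and -0.62 after HPTE. The vehicle arrays were also those with the high spermatogenic transcripts, and the part of those transcripts in this difference was not tested.

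At 24 h Bub1b was 2394 and 1849 after E2, 1934, 1226 and 1600 after BPA, and 2057, 2053 and 2121 after HPTE. Every one of these arrays lay above vehicle, while E2 and BPA overlapped each other. The differences from vehicle were 1.05 (adjusted p = 0.000104), 0.62 (adjusted p = 0.0194) and 1.03 (adjusted p = 0.000215). The BPA call was lost in 7 of 31 alternative settings: with no scaling (0.50, adjusted p = 0.161), spike-in scaling (0.49, adjusted p = 0.684), slide as a fixed block (0.63, adjusted p = 0.123) and only the groups compared (adjusted p = 0.0903), without vehicle replicate 1 (0.57, adjusted p = 0.0832) and without BPA replicate 1 (0.46, 0.108 as adjusted p) or replicate 3 (0.60, adjusted p = 0.0687).

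Bub1 and Ttk, the kinases at the head of the signal, differed from vehicle at 24 h after each compound, and their arrays overlapped vehicle at 2 h. Bub1 was 248, 171 and 131 on vehicle arrays and 131 to 268 over the 9 arrays at 2 h. At 24 h it was 1328 and 1232 after E2, 466, 376 and 406 after BPA, and 711, 770 and 681 after HPTE. The groups at 24 h fell in the order BPA, HPTE, E2 with no overlap.

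The Bub1 log2 difference from vehicle at 24 h was 2.85 ± 0.25 (SE) after E2, 1.23 ± 0.23 after BPA and 2.02 ± 0.23 after HPTE, with limma adjusted p of 1.78e-07, 0.00251 and 1.63e-05. As fold changes these were 7.22, 2.34 and 4.06. Over all probes tested, 99.1%, 98.7% and 99.4% had a smaller signed difference in the same contrast.

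Ttk was dim, with intensity 27.9, 25.0 and 17.7 on vehicle arrays and 12.6 to 26.8 at 2 h, and it was well above background on 18 of the 20 arrays. At 24 h it was 168 and 134 after E2, 66.0, 46.4 and 53.3 after BPA, and 83.1, 94.99 and 82.8 after HPTE. As for Bub1, the groups did not overlap at 24 h and kept the order BPA, HPTE, E2. The levels were 6.48-fold, 2.36-fold and 3.75-fold those of vehicle (adjusted p = 3.90e-07, 0.00268 and 3.01e-05). The sizes depend on the background correction of this dim probe, which was not well above background on vehicle replicate 3: the log2 differences were 2.69, 1.24 and 1.91, and with normexp and quantile normalization 1.35, 0.48 and 0.83, still called.

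Mad1l1, which carries Mad2l1 to kinetochores, separated by compound at 24 h. It was 1368, 1509 and 1512 on vehicle arrays and 1157 to 1483 at 2 h. At 24 h it was 2734 and 2871 after E2, 1422, 1442 and 1502 after BPA, and 1871, 1991 and 1829 after HPTE. BPA overlapped vehicle (-0.01, 95% interval -0.18 to 0.17, adjusted p = 0.970), while E2 was 1.92-fold (adjusted p = 5.08e-07) and HPTE 1.30-fold its level (adjusted p = 0.00307). The HPTE call (0.38 on the log2 scale) was lost with no scaling (0.26, adjusted p = 0.222) and with spike-in scaling (0.08, adjusted p = 0.890).

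Bub3, the binding partner of Bub1 and Bub1b, moved by less but with narrow spread. Its brightest probe was 8746, 9458 and 9065 on vehicle arrays, 8622 to 9668 at 2 h after E2, 10418 to 11626 after BPA and 11318 to 11736 after HPTE. At 2 h BPA (0.25 on the log2 scale, adjusted p = 0.0165) and HPTE (0.33, adjusted p = 0.00365) stood above E2 with no overlap. The BPA call was lost without E2 2 h replicate 2 (0.20, adjusted p = 0.0676) or BPA 2 h replicate 2 (0.20, adjusted p = 0.075).

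At 24 h Bub3 was 14829 and 15961 after E2, 10143, 9675 and 9666 after BPA, and 11198, 11188 and 10522 after HPTE, all above vehicle. E2 was 1.69-fold (adjusted p = 3.86e-07) and HPTE 1.21-fold vehicle (adjusted p = 0.00527), and BPA did not pass (0.11, adjusted p = 0.280). The HPTE call (0.27 on the log2 scale) was lost with no scaling (0.16, adjusted p = 0.386) and with slide as a fixed block (0.23, adjusted p = 0.107). With spike-in scaling the HPTE difference was -0.027 (adjusted p = 0.961). The probes of Bub3 disagreed. The second rose after E2 (0.37, adjusted p = 0.00225) but not after HPTE (0.05, adjusted p = 0.649). The third, designed to a clone of another accession (AK083742), was lower after E2 (-0.50, adjusted p = 0.0103) and HPTE (-0.62, adjusted p = 0.00348), and the fourth was not above background on any array.

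Counted together, 7 of the 7 genes rose at 24 h after E2, 3 after BPA (Bub1, Bub1b and Ttk) and 6 after HPTE (all but Mad2l2). The Mad2l2 call after E2 was lost in 22 of 31 alternative settings. After HPTE, Mad2l2 passed without BPA 2 h replicate 3 (adjusted p = 0.0273). Of all probes tested, 26.3%, 5.09% and 14.9% were called higher in these contrasts and 37.6%, 8.03% and 19.1% lower. The median log2 difference of the 7 genes was 1.05, 0.41 and 1.03, against -0.15, -0.03 and -0.06 over all probes. Markers of the uterine tissues differed from vehicle at 24 h as well, in different directions. The summed intensity of Esr1, Pgr, Hoxa10 and Hoxa11 was 58821 to 70502 on vehicle arrays. At 24 h it was 43790 to 52014 after E2, 43672 to 49180 after BPA and 42733 to 56958 after HPTE. Of these 4 genes, 1 was called higher and 1 lower after E2, 0 were called after BPA, and 1 was called lower after HPTE. The endothelial marker Pecam1 differed from vehicle by 0.18, 0.57 and 0.47 and was called after BPA and HPTE but not after E2. The summed intensity of 4 epithelial markers (Krt8, Krt18, Cdh1 and Foxa2) was 121531 to 141459 on vehicle arrays and at 24 h 220858 to 260514 after E2, 164966 to 183463 after BPA and 203458 to 225451 after HPTE. Within it, Foxa2 was lower after E2 (-1.25, adjusted p = 0.00264). That of 3 stromal markers (Vim, Col1a1 and Hand2) was 82093 to 95081 on vehicle arrays and 221766 to 236224, 113670 to 176054 and 184292 to 203978 after the compounds. Of these 3 genes, 2 were called higher after E2, 1 after BPA and 2 after HPTE. The summed intensity of 3 smooth muscle markers (Acta2, Myh11 and Des) was 311816 to 345987 on vehicle arrays and 448362 to 485551, 372640 to 423107 and 446132 to 497727 after the compounds. Ptprc was lower after E2 (-1.06, adjusted p = 0.040). All of these markers were well above background on those arrays. The part of the tissue markers, of the spermatogenic transcripts and of the pancreatic transcripts on the E2 arrays in the differences at 24 h was not tested. Scaling to the spike-in probes left 0 of the BPA calls and 2 of the HPTE calls.

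**Figure D2:**
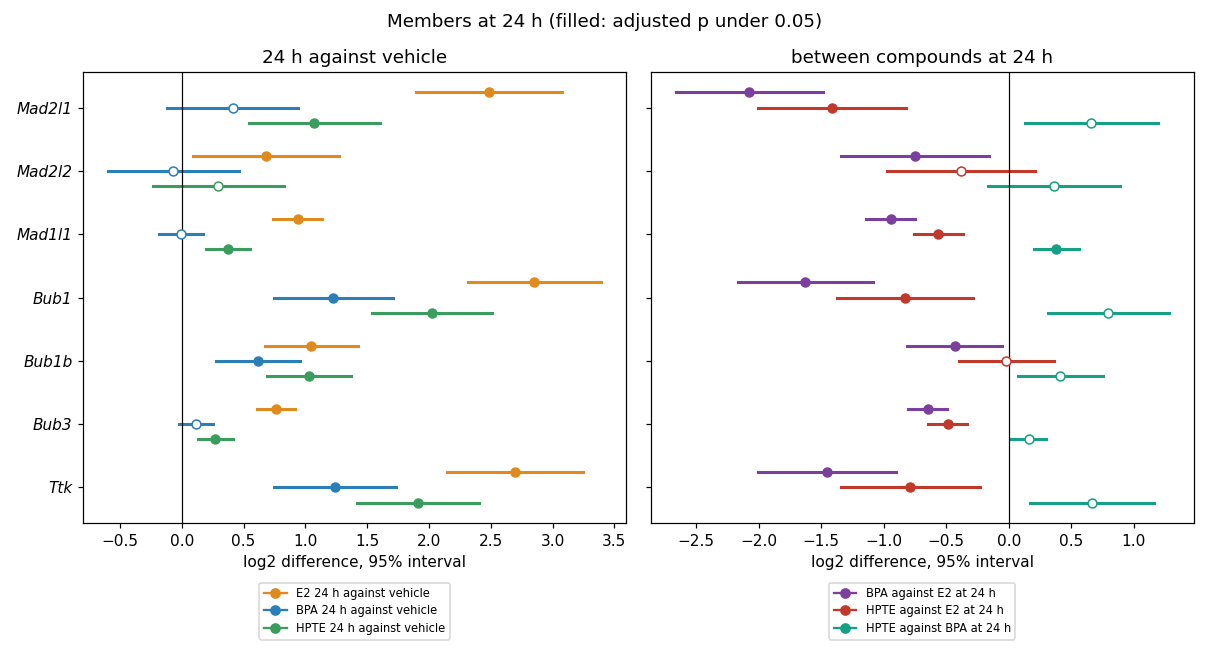
Log2 differences at 24 h for each gene (points) with 95% intervals (lines), from vehicle on the left and between compounds on the right; filled points passed an adjusted p of 0.05. The difference from vehicle is largest after E2 for all 7 genes, and all 7 differences of HPTE from BPA lie above 0 although 1 of them is filled.

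Between compounds at 24 h, 7 of the 7 genes were lower after BPA than after E2, where 24.6% of all probes were lower. The log2 differences ran from -2.07 for Mad2l1 (adjusted p = 1.39e-05) to -0.43 for Bub1b (adjusted p = 0.049), and the last was lost in 24 of 31 alternative settings. The Mad2l2 call (-0.75, adjusted p = 0.0311) was lost in 8 of 31, among them quantile normalization (-0.56, adjusted p = 0.101), slide as a fixed block (-0.85, adjusted p = 0.0515) and leaving out E2 24 h replicate 2 (adjusted p = 0.112) or replicate 3 (adjusted p = 0.0992). Lower after HPTE than after E2 were 5 of the 7, against 21.6% of all probes: Mad2l1, Bub1 (-0.83, adjusted p = 0.0133), Ttk (-0.79, adjusted p = 0.0201), Mad1l1 (-0.56, adjusted p = 0.000137) and Bub3 (-0.49, adjusted p = 5.74e-05). Without E2 24 h replicate 2 the count was 3. The Bub1b difference between HPTE and E2 was -0.02 (95% interval -0.40 to 0.36, adjusted p = 0.944). That of Mad2l2 was -0.38 (adjusted p = 0.276), and without BPA 2 h replicate 3 it passed (adjusted p = 0.00788). E2 was given at another dose, so these differences are those of the doses as given. Of 9 spermatogenic transcripts tested at 24 h, 9 were called higher after BPA than after E2 and 3 higher after HPTE than after E2. Between HPTE and BPA 0 were called. The median log2 difference of these transcripts was 3.25 for BPA from E2, 1.48 for HPTE from E2 and -1.46 for HPTE from BPA. The part of these and of the pancreatic transcripts in the differences between compounds was not tested.

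BPA and HPTE were given at the same mass. Both hold a pair of phenol rings on a central carbon, which carries methyl groups in BPA and a trichloromethyl group in HPTE. All 7 genes were higher after HPTE at 24 h with no overlap of the arrays, as were 18.1% of all probes. Of the 7, 1 passed the test, against 2.99% of all probes. That gene was Mad1l1 (0.38, 95% interval 0.21 to 0.56, adjusted p = 0.022), and its call was lost without any 1 of the 3 BPA 24 h arrays or without HPTE 24 h replicate 1 or replicate 2. At an unadjusted p under 0.05 the count was 6. The other intervals were 0.31 to 1.28 for Bub1 (adjusted p = 0.0608), 0.17 to 1.16 for Ttk (adjusted p = 0.114), 0.13 to 1.19 for Mad2l1, 0.07 to 0.75 for Bub1b (adjusted p = 0.150), 0.02 to 0.30 for Bub3 (adjusted p = 0.180) and -0.17 to 0.89 for Mad2l2 (adjusted p = 0.444). Without BPA 2 h replicate 3, 3 of the 7 passed, among them Mad2l1 (adjusted p = 0.00935) and Mad2l2 (adjusted p = 0.0445).

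At 2 h, 1 of the 7 genes was called higher after BPA than after E2 (Bub3), against 7.92% of all probes, and 2 after HPTE (Mad2l2 and Bub3), against 8.45%. Between HPTE and BPA limma called 0 of the 7 at 2 h and 0.438% of all probes in either direction; at an unadjusted p under 0.05 the count was 1. Without BPA 2 h replicate 3, 3 genes were called between BPA and E2. The spermatogenic transcripts had median log2 differences from E2 of 3.50 after BPA and 1.69 after HPTE at 2 h. The part of these and of the pancreatic transcripts in the differences at 2 h was not tested.

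The change of these differences with time was tested as well, a contrast added after the values were seen. The difference of BPA from E2 fell from 2 h to 24 h for 6 of the 7 genes, where 22.1% of all probes fell, and that of HPTE from E2 for 6 of 7, where 20.7% fell. For Mad2l1 the shifts were -2.24 (adjusted p = 0.000138) and -1.54 (adjusted p = 0.00333) on the log2 scale, and for Mad2l2 -1.44 (adjusted p = 0.00458) and -1.85 (adjusted p = 0.00086). Bub1b did not pass in either (-0.39, adjusted p = 0.193, and 0.14, adjusted p = 0.674).

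The partners of the checkpoint were taken from a list of 57 genes, of which 52 had a probe and 51 passed the filter. At 24 h, 38 rose and 1 fell after E2, 24 rose and 2 fell after BPA, and 33 rose and 1 fell after HPTE. Of all probes, 26.3%, 5.09% and 14.9% were called higher and 37.6%, 8.03% and 19.1% lower. The median log2 difference of the listed genes was 1.31, 0.30 and 0.66. At 2 h the counts were 5 up and 3 down after E2, 12 and 10 after BPA, and 9 and 6 after HPTE. Of all probes at 2 h, 11.1%, 19.3% and 19.9% were called higher and 17%, 30.2% and 28.2% lower.

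**Figure D3:**
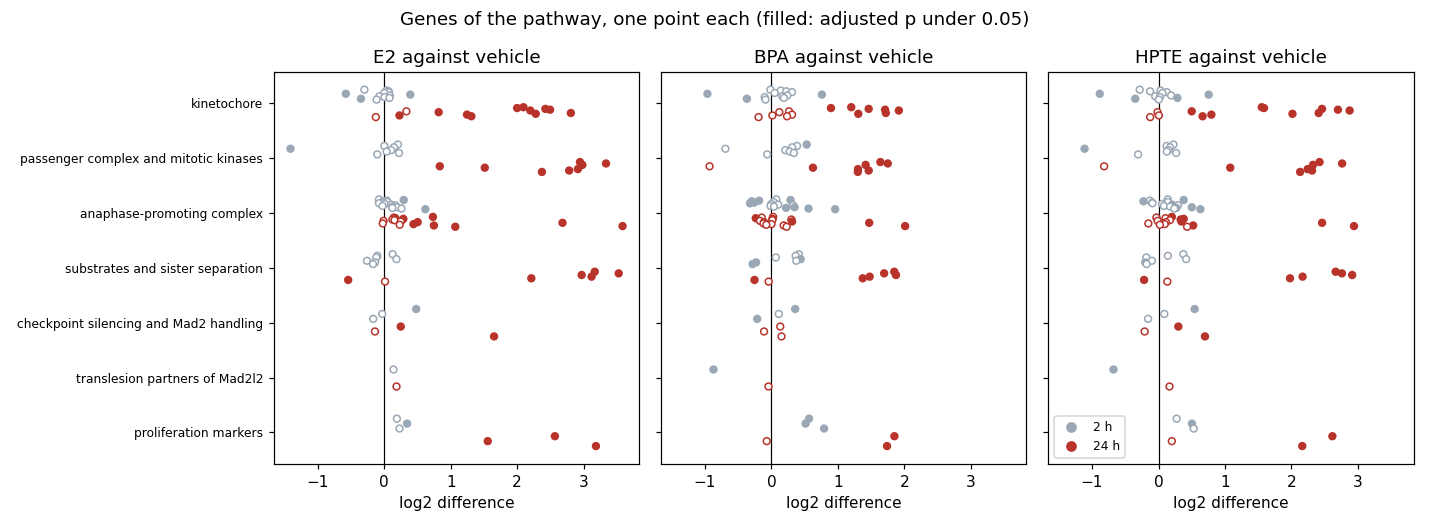
Log2 differences from vehicle of the 51 pathway genes tested, 1 point a gene, by role (rows) and compound (panels), at 2 h in grey and at 24 h in red; filled points passed an adjusted p of 0.05. At 24 h most points of the kinetochore, passenger complex and substrate rows lie above 1 after E2, and most grey points lie near 0.

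At the kinetochore, where the signal is made, 11 of 13 genes rose at 24 h after E2, 7 after BPA and 10 after HPTE. Ndc80, which holds the microtubule, rose by 2.81, 1.72 and 2.41 on the log2 scale. The motor Cenpe rose by 2.50, 1.71 and 2.70, and Casc5, the platform for Bub1 and Bub1b, by 2.09, 1.20 and 1.55. Zwint had differences of -0.13, -0.19 and -0.13 and passed in none. At 2 h Mis12, part of the inner link to the centromere, was higher after each compound (0.39, 0.76 and 0.75), and Kntc1 (-0.58, -0.96 and -0.89) and Zwilch (-0.35, -0.37 and -0.35), of the complex that brings dynein and Mad1l1, were lower.

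Of the passenger complex and mitotic kinases, 8 of 8 rose after E2 and 7 after BPA and HPTE. Aurkb, the kinase that frees wrong attachments, rose by 2.95, 1.64 and 2.42, and its partner Birc5 (survivin) by 3.34, 1.75 and 2.76. Gsg2 (haspin), which marks the centromere for that complex, rose after E2 (0.84), with values of -0.93 and -0.82 after BPA and HPTE that did not pass. At 2 h Gsg2 was lower after E2 (-1.41) and HPTE (-1.11). Gsg2 is known for high expression in testis. The spermatogenic transcripts tested had median log2 differences from vehicle of -5.90, -2.44 and -4.19 at 2 h after E2, BPA and HPTE. At 24 h these were -6.82, -3.58 and -5.03, lowest after E2, where Gsg2 rose. The part of these transcripts in the Gsg2 differences was not tested.

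The target of the checkpoint was divided. Of 16 genes of the anaphase-promoting complex and its cofactors, 9 rose after E2, 3 after BPA and 7 after HPTE. Cdc20, the activator that Mad2l1 and Bub1b hold, rose by 2.68, 1.47 and 2.46, and Ube2c, the conjugating enzyme, by 3.59, 2.01 and 2.94. The core subunits moved little: Anapc1 rose after E2 by 0.73 and after HPTE by 0.20 (0.03 after BPA), and Cdc23 had values of -0.02, -0.12 and -0.15. Anapc11 was higher after E2 (0.17) and lower after BPA (-0.24).

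Of the substrates and separation genes, 5 of 7 rose after each compound. Ccnb1, the cyclin whose loss ends mitosis, rose by 3.53, 1.70 and 2.76, and Espl1 (separase) by 2.21, 1.38 and 1.98. Pttg1 (securin), which restrains separase, was lower after each (-0.54, -0.25 and -0.22). Rad21, the cohesin cleaved by separase, passed in none.

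Among genes that handle Mad2l1, Trip13, the ATPase that returns it to its open form, rose after E2 (1.65) and HPTE (0.70) and not after BPA (0.15). Mad2l1bp (p31comet), the adaptor of Trip13, was higher at 2 h after each compound (0.48, 0.36 and 0.54). Rev3l, the polymerase subunit that Mad2l2 binds, was lower at 2 h after BPA (-0.88) and HPTE (-0.68) and had a difference of 0.14 after E2. Mki67, a marker of cycling cells, rose at 24 h by 2.57, 1.85 and 2.62, while Pcna rose after E2 (1.56) and had values of -0.07 and 0.20 after BPA and HPTE.

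Between HPTE and BPA at 24 h, 23 of the 51 genes were higher after HPTE and 0 lower, against 2.99% and 1.09% of all probes, with a median log2 difference of 0.36. Ccnb1 (1.06), Birc5 (1.01) and Cenpa (0.996), the centromere histone, were among them. The count was 0 without BPA 24 h replicate 2 or without HPTE 24 h replicate 2, and 0 with slide as a fixed term or with those groups alone in the fit. Between BPA and E2, 38 were lower after BPA and 1 higher, against 24.6% and 33.2% of all probes.

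Among the other members, Mad2l2 had the profile most like that of Mad2l1. Over the 20 arrays the Pearson correlation of Mad2l1 was 0.68 with Mad2l2, 0.34 with Bub3, -0.17 with Mad1l1, -0.25 with Bub1, -0.31 with Ttk and -0.55 with Bub1b, given as descriptions over arrays that fall into groups. Of all probes tested, 90.1% had a lower correlation with Mad2l1 than Mad2l2 had. The named probes most like Mad2l1 were those of Got1 (0.985), Krt85 (0.979), Ramp3 (0.976), Krt86 (0.976) and Krt87 (0.975, Krt2-25 on the array). Got1 is the cytosolic aspartate aminotransferase, Ramp3 is a partner of the calcitonin-like receptor, and the others are hair keratins. Ramp3 stood 2.41 above vehicle on the log2 scale at 24 h after E2, -0.26 after BPA and 0.25 after HPTE.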

How the data were processed

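RNA of 1 uterus per array (500 ng) was hybridised by the authors to Agilent whole mouse genome arrays in 1 colour. The deposited files hold scanner output of Agilent Feature Extraction 9.5 (version from the submitters' processing notes). The deposited intensity used here is the processed signal, background-subtracted by that software; positions follow mm7. Groups came from the labels, in which the treatment and time fields are exchanged.

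The log2 of the processed signal minus the 75th percentile of each array was tested with limma 3.58.1 in R 4.3.3 over all 7 groups and 20 arrays, with Benjamini-Hochberg adjustment over 32456 of 41174 probes (kept where all arrays of some group read well above background and no more than 2 arrays lacked a value). Calls used an adjusted p under 0.05. Control spots and outlier flags were left out. The number of arrays limits the precision. The labels do not say whether uteri came from separate litters or experiments, so p-values measure only the spread between these arrays.

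The members, the gene lists and the rule for named genes (the 7 members, the pathway list, and the 6 probes most like Mad2l1 by Pearson correlation, 1 per symbol, without clone names; 1 of these is not reported here) were chosen with earlier results of these data known. The contrasts of 2 h against vehicle were not tested for the members. Replicate numbers did not pair the arrays: deviations of 57 same-numbered pairs correlated between -0.36 and 0.33. Arrays lay on 6 slides, and deviations of 25 pairs of arrays of other groups on the same slide correlated with a median of 0.11 (up to 0.51, 13 over 0.1); the main fit has no slide term, and slide as a block was an alternative; BPA 24 h replicate 3 and HPTE 24 h replicate 2 shared a slide scanned on a later day. On simulated data for E2 24 h the fit was tested before use. Alternatives changed the background correction, the scaling, the filter, the weights, the slide and replicate blocks, the probe and the arrays. Sequences came from the scanner output and from RefSeq (GRCm38.p6), through Python 3.11.15.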

Additional observations from a re-analysis of the deposited data

Results flagged for a closer look

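The difference between BPA and E2, and that between HPTE and E2, differed between 2 h and 24 h by limma's test of the difference itself, added after the values were seen. For BPA the shift (24 h minus 2 h, log2 scale) was -2.24 for Mad2l1, -1.90 for Bub1, -1.71 for Ttk, -1.44 for Mad2l2, -0.998 for Mad1l1 and -0.90 for Bub3. For HPTE it was -1.85 for Mad2l2, -1.54 for Mad2l1, -1.02 for Bub1, -0.94 for Ttk, -0.82 for Bub3 and -0.74 for Mad1l1. Of the 7 genes 6 passed in each, and leaving out single arrays gave counts of 6 in every case for BPA and 4 to 6 for HPTE. Both shifts share the E2 arrays. Pancreatic transcripts were high on these arrays apart from E2 2 h replicate 1, and the part of those transcripts in the shifts was not tested. Groups held 2 or 3 arrays, too few for the check of single outlying arrays.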

How the results depend on the processing

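Counts of called members changed with the processing as follows. Scaling to the spike-in probes gave 0 for BPA 24 h against vehicle, 2 for HPTE 24 h against vehicle, 4 for BPA against E2 and 2 for HPTE against E2 at 24 h, 0 for HPTE against BPA at 24 h, 0 for BPA against E2 and 1 for HPTE against E2 at 2 h. The Bub3 difference for HPTE 24 h against vehicle turned to -0.027 there. Asking for a 2-fold change as well gave 4 for E2 24 h against vehicle, 3 for BPA against E2 and 1 for HPTE against E2 at 24 h, 0 for HPTE against BPA at 24 h, 0 for BPA against E2 and 1 for HPTE against E2 at 2 h. For HPTE against BPA at 24 h (1 called) the count was 3 with normexp, 0 with no scaling, 2 with the signal filter at 100, 4 with array weights, and 0 with slide as a fixed block or only the groups compared. For BPA against E2 at 2 h (1 called) it was 2 with no scaling, 2 with array weights, and 0 with slide as a fixed block or only the groups compared; for HPTE against E2 at 2 h (2 called), 1 with only the groups compared. Leaving out 1 array at a time gave 6 to 7 for E2, 2 to 4 for BPA and 6 to 7 for HPTE at 24 h against vehicle, 5 to 7 for BPA against E2, 3 to 6 for HPTE against E2 and 0 to 3 for HPTE against BPA at 24 h, and 0 to 3, 2 to 3 and 0 to 1 for the same pairs at 2 h; for the shifts with time the ranges were 6 to 6 and 4 to 6. The pathway counts, whose alternatives were chosen after seeing the data, ranged over 36 to 40, 23 to 27 and 30 to 36 at 24 h against vehicle, 36 to 39, 14 to 23 and 0 to 26 for the pairs at 24 h, and 5 to 8, 13 to 23 and 13 to 17 at 2 h against vehicle when arrays were left out. Spike-in scaling gave 22 for HPTE 24 h against vehicle, 10 for HPTE against E2 and 0 for HPTE against BPA at 24 h, and 1, 2 and 3 for E2, BPA and HPTE at 2 h. For HPTE against BPA at 24 h the pathway count was also 0 with no scaling, with slide as a fixed block and with only the groups compared; at 2 h it was 5 for E2 with slide as a fixed block and 9 for BPA with no scaling. With the replicate number as a block, the Bub1b call for BPA against E2 at 24 h was lost (-0.41), and no other call of a member tested against vehicle or between compounds changed; 5 of 20 arrays correlated best with their own number. Spike-in scaling moved the median of all probes for HPTE 24 h against vehicle to -0.36, and no scaling moved it to 0.36 for HPTE against E2 at 2 h. Among 2259 alternative values of a member that kept their call or passed in neither setting, 38 had the other sign, all of them values that passed in neither. The causes were not tested. Weak signal limits Ttk, which was near background on vehicle arrays.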
